A study of Bos taurus with 12 samples.

Results

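Heat shock proteins, their co-chaperones and the chaperonins were followed in bovine oocytes through maturation and between donors of different age. A gene was a member if its probe set carried a single symbol beginning with HSP and a digit or one of the letters A to H, with DNAJ, or with PFDN, or if it was a CCT subunit, TCP1, a BAG gene or STIP1. This gave 66 genes of the 9155 named on the array, read by 100 of 24016 probe sets. For each gene the probe set with the highest mean over the 12 arrays was used, called the chosen probe set, and no measured difference entered the choice. Counts of chaperone genes are over these chosen probe sets. Of the 66 genes, 59 had a mean log2 signal above the filter on dim probe sets (5.57), as did 6842 of all 9155 genes, and 44 were read by 1 probe set only.

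The study hybridised oocytes of Japanese Black cattle to 12 Affymetrix bovine arrays, 3 for each of 4 groups. The groups were metaphase II (MII) oocytes of prepubertal heifers, MII oocytes of adult cows, germinal vesicle (GV) oocytes of prepubertal heifers and GV oocytes of adult cows. Heifers were 9 to 12 months old, and adult cows came without a stated age. Oocytes from follicles of 2 to 8 mm were taken at the GV stage straight after aspiration, whereas MII oocytes had been matured in vitro for 20 to 22 h and showed a polar body. Each array held amplified, biotin-labelled RNA from 1 pool of 50 oocytes stripped of cumulus cells. No group carried a heat or drug treatment, and the labels name no animal or day shared by pools.

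Heat shock protein 70 chaperones bind exposed hydrophobic stretches of unfolded proteins in cycles of ATP hydrolysis. J-domain proteins of the DNAJ families bring the client and start the hydrolysis, and exchange factors such as HSP110 and BAG proteins end the cycle. HSP90 takes over clients such as kinases and steroid receptors through the adaptor STIP1, whereas prefoldin hands newly made actin and tubulin to the ring-shaped chaperonin CCT. A GV oocyte is nearly silent in transcription once fully grown, and through maturation it works from stored messenger RNA that is translated, stored or degraded.

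HSP90AA1, the stress-inducible cytosolic HSP90 and the gene named as marker of this part, was kept and read at a mean of 13.81 (SD 1.30, n = 9 arrays). Members were taken by symbol and by their brightest probe set, so this reading is no test of the label. HSPG2 matched the rule by its symbol alone: it encodes perlecan, a basement membrane proteoglycan, and not a chaperone. As a member by the rule it is still included in every count of chaperone genes below. The 66 genes fell into 3 of the HSP90 family, 9 of HSP70 and HSP110, HSP60 with its lid HSP10, 5 small heat shock proteins, 26 J-domain proteins, 6 CCT subunits, 5 prefoldin subunits and 9 BAG proteins and adaptors. All of the HSP90, HSP70, DNAJA, DNAJB and prefoldin genes were kept. The 7 genes below the filter were BAG4, CCT6A, DNAJC12, DNAJC22, HSPB2, HSPB3 and HSPB8, so 3 of the 5 small heat shock proteins were not tested. HSPA1A was read by 6 probe sets, whose annotation holds the identifiers of 2 near-identical genes, and its values cannot be assigned to either copy.

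Of the 12 arrays, 3 stood apart. On 9 arrays the 8 oocyte markers had a median 5.78 to 8.51 log2 units higher than that of all probe sets. The excess was -0.11 on MII prepubertal replicate 1, -0.45 on GV prepubertal replicate 1 and 0.70 on GV adult replicate 1, which are called arrays without an oocyte profile. For 15 cumulus and granulosa markers it was 2.42 and 2.11 on those prepubertal arrays, 0.17 on GV adult replicate 1, and -2.06 to 0.51 on the 9 arrays. The highest rank correlation with any other array was 0.14 for GV adult replicate 1 and 0.55 for MII adult replicate 3, which had an oocyte profile. On GV adult replicate 1, 27 of the 66 chaperone genes (40.9%) read below the lowest of the 9 arrays, against 18.5% of all genes, and 12 (18.2%) read above the highest, against 34.4%. Its median chaperone gene lay 1.45 log2 units below the mean of the 9 arrays, while the median of all genes lay 1.08 above it. That array had the highest median of all probe sets (8.30) and the lowest maximum (14.58). Chaperone genes also read higher than all genes over the 9 arrays, with a median of 8.92 against 6.67. The part of signal level in this contrast was not tested. HSP90AA1 read 7.60 there, against 14.98 and 15.48 in the other GV adult pools. On MII prepubertal replicate 1, 10 chaperone genes (15.2%) read below that range, against 18.0% of all genes, and 14 (21.2%) above, against 18.2%. On GV prepubertal replicate 1, 9 (13.6%) read below, against 11.4%, and 14 (21.2%) above, against 26.0%. HSPB1 (HSP27), a small heat shock protein, read 12.79 and 12.83 on those 2 arrays, against 3.78 to 9.98 on the 9. DNAJB9, an ER co-chaperone, read 10.48 and 11.82, against 0.94 to 7.81. CCT6A, which was not kept, read 11.85 and 11.63, against 0.88 to 4.65. GV adult replicate 1 also read above the range of the 9 arrays for DNAJB9 (10.52) and CCT6A (6.14), and within it for HSPB1 (8.68). The part of somatic cells in these readings was not tested, and in a pool fewer cells of a type and less RNA per cell cannot be told apart. Results are therefore given over all 12 arrays, which was the design, and over the 9 arrays with an oocyte profile.

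**Figure D1:**
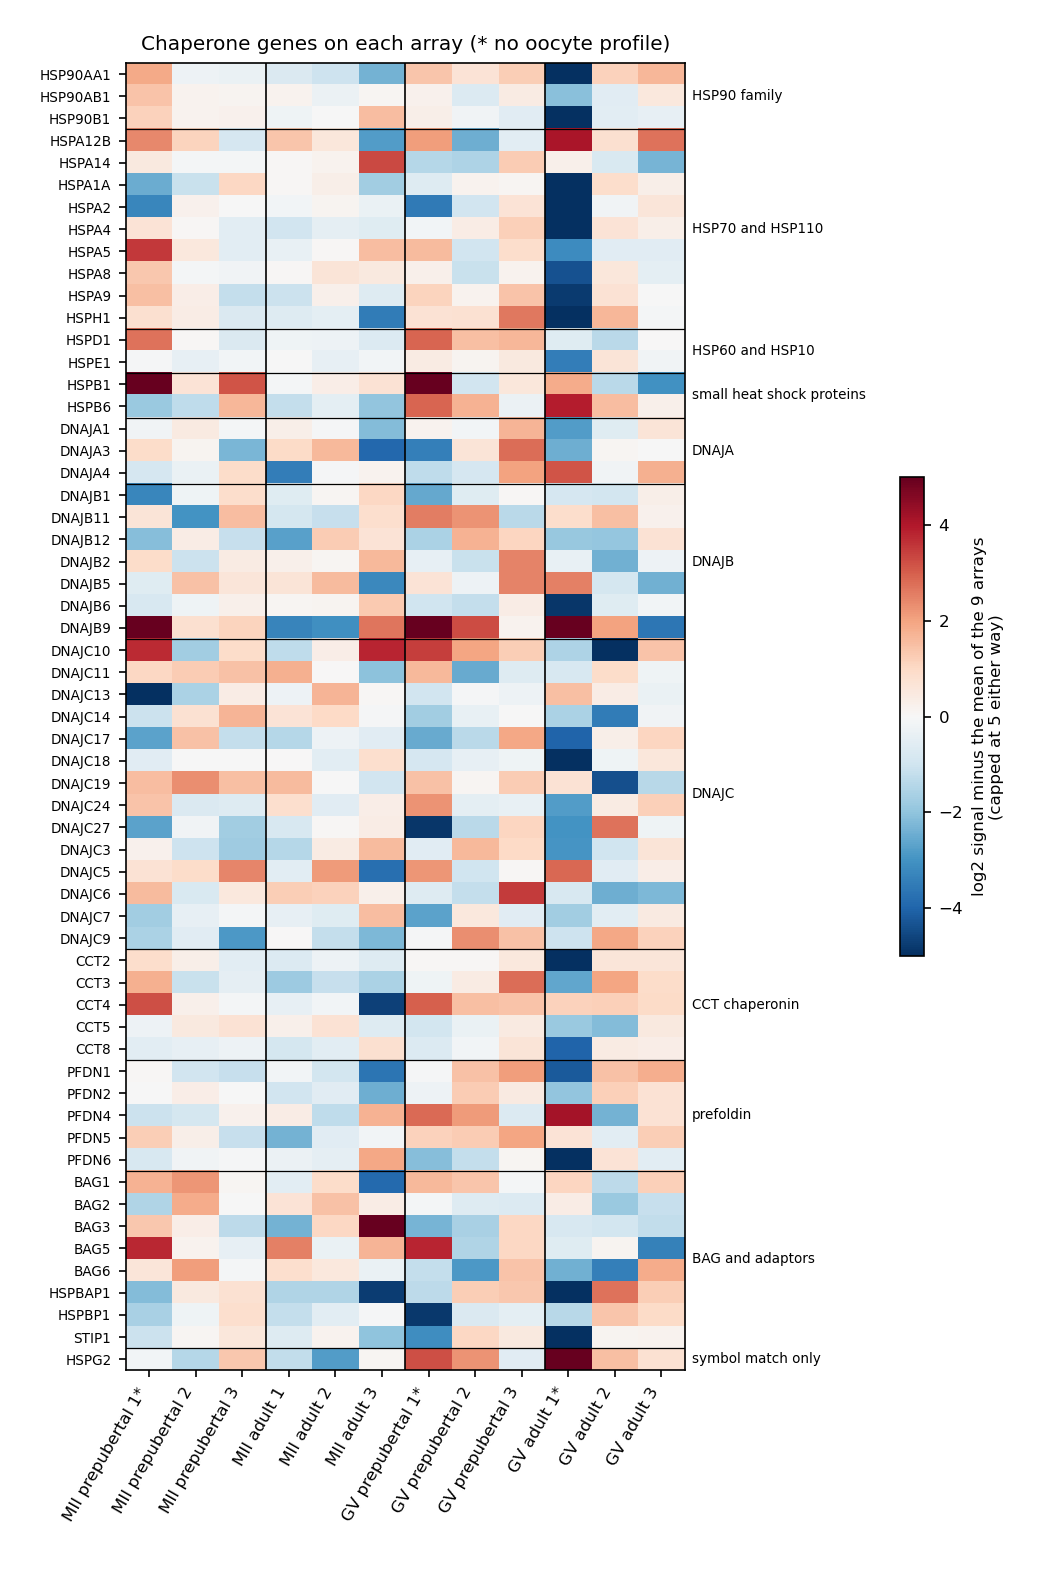
Heat map of the 59 chaperone genes kept by the filter (rows, by role) on the 12 arrays (columns, MII left of GV); colour gives the log2 signal minus the gene's mean over the 9 arrays with an oocyte profile, capped at 5 either way, and an asterisk marks the other 3 arrays. GV adult replicate 1 is the column with most dark blue cells, and 27 of all 66 genes read below the range of the 9 arrays on it.

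The smallest SDs over the 9 arrays were found in chaperones of several families. HSPE1 (HSP10), the lid of the mitochondrial chaperonin, had a mean of 12.90 (SD 0.37, n = 9), and over these arrays its differences between stages or ages ran from -0.61 (SE 0.56), at maturation in prepubertal donors, to 0.09. HSP90AB1, the constitutive cytosolic HSP90, had a mean of 12.70 (SD 0.42, n = 9). DNAJC18 had a mean of 12.60 (SD 0.45), HSPA2 of 12.85 (SD 0.50) and the chaperonin subunit CCT2 of 12.21 (SD 0.54). HSPA8, the constitutive HSP70, had a mean of 13.65 (SD 0.56), and the chaperonin subunit CCT8 of 14.44 (SD 0.58). HSPE1 read 12.48 and 12.75 in MII prepubertal and 12.89, 12.51 and 12.78 in MII adult pools, against 13.03 and 13.41 in GV prepubertal and 13.56 and 12.71 in GV adult pools. HSPA8 read 13.54 and 13.49 in MII prepubertal and 13.69, 14.28 and 14.12 in MII adult pools, against 12.53 and 13.82 in GV prepubertal and 14.21 and 13.15 in GV adult pools. CCT8 read 14.04 and 14.18 in MII prepubertal and 13.57, 13.93 and 15.25 in MII adult pools, against 14.30 and 15.09 in GV prepubertal and 14.87 and 14.77 in GV adult pools. In HSPE1 the MII and GV pools overlapped in adult donors, and in prepubertal donors both MII pools lay below both GV pools. Values of different probe sets depend on their probes, so the means order no transcripts. At the other end, DNAJC10, an ER disulfide reductase with a J domain, had an SD of 3.01 and ran from 1.89 in GV adult replicate 2 to 12.39 in MII adult replicate 3. DNAJB9 had an SD of 2.67 and BAG3, a co-chaperone of selective autophagy, 2.25. Means were 8.58 for DNAJC10, 4.55 for DNAJB9 and 8.27 for BAG3, below those of the genes with small SDs. The mean of DNAJB9 over the 9 arrays lay below the filter (5.57), as did that of HSPA12B (5.44). Both were kept, and are counted among the 59, through their mean over the 12 arrays (6.15 in each). The part of signal level in the spread was not tested. BAG3 read 13.38 in MII adult replicate 3 and 5.89 to 9.30 on the other 8 arrays.

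Maturation was the only comparison with chaperone genes past the threshold. Averaged over both ages and over the 9 arrays, 3 of 59 genes passed the test with their chosen probe set, all lower at MII: HSP90AA1, the CCT subunit CCT3 and the prefoldin subunit PFDN1. They were among 104 of 14409 probe sets (0.722%) past an adjusted p of 0.05 by limma. Over all 12 arrays no chaperone gene and no probe set at all passed (0%), with 1537 probe sets (10.7%) and 4 chaperone genes at an unadjusted p under 0.05. These 4 include HSPG2, which is not a chaperone. With the replicate number as a block, 15 probe sets passed over the 12 arrays, none of them a chaperone gene's.

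HSP90AA1 read 13.57 and 13.46 in MII prepubertal and 13.09, 12.76 and 11.43 in MII adult pools, against 14.49 and 15.02 in GV prepubertal and 14.98 and 15.48 in GV adult pools. Every MII pool lay below every GV pool. The fall was 2.02 log2 units (SE 0.37, limma adjusted p = 0.0247), with a mean of 12.86 in 5 MII pools and 14.99 in 4 GV pools. The fit weighs both ages equally, so the fall is not the plain difference of these means. In adult donors alone the fall was 2.80 (SE 0.50, adjusted p = 0.0497), the only chosen probe set of a chaperone gene among 17 probe sets (0.118%) past the threshold there. Another probe set of HSPA5 passed in both of these comparisons and is described with the probe sets. On the arrays without an oocyte profile HSP90AA1 read 15.72 on MII prepubertal replicate 1, 15.20 on GV prepubertal replicate 1 and 7.60 on GV adult replicate 1. With these included the difference was -0.46 (adjusted p = 0.897).

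CCT3, a subunit of the chaperonin that folds actin and tubulin, read 11.43 and 12.08 in MII prepubertal and 10.71, 11.39 and 10.96 in MII adult pools, against 12.96 and 15.33 in GV prepubertal and 14.49 and 13.44 in GV adult pools. The ranges did not overlap, and CCT3 fell by 2.67 log2 units (SE 0.52, limma adjusted p = 0.0344). PFDN1, a subunit of prefoldin, which delivers clients to that chaperonin, read 11.03 and 10.81 in MII prepubertal and 11.84, 11.06 and 8.33 in MII adult pools, against 13.44 and 14.06 in GV prepubertal and 13.44 and 13.78 in GV adult pools. It fell by 3.02 log2 units (SE 0.64, limma adjusted p = 0.0488), with no overlap. Of the 9 arrays MII adult replicate 3 was the lowest for both HSP90AA1 and PFDN1. The other 3 arrays read 14.30 on MII prepubertal replicate 1, 12.31 on GV prepubertal replicate 1 and 9.94 on GV adult replicate 1 for CCT3. For PFDN1 they read 12.02 on MII prepubertal replicate 1, 11.92 on GV prepubertal replicate 1 and 7.77 on GV adult replicate 1. Over 12 arrays the differences were -1.26 (adjusted p = 0.616) for CCT3 and -1.55 (adjusted p = 0.572) for PFDN1.

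With the replicate number as a block over the 9 arrays, all 3 stayed past the threshold, at -2.19 (adjusted p = 0.0168) for HSP90AA1, -2.59 (0.0317) for CCT3 and -3.37 (0.0202) for PFDN1, in a fit that leaves 2 residual degrees of freedom. The calls depended on single pools. With each of the 9 arrays left out in turn, HSP90AA1 stayed past the threshold only without 1 of the 3 MII adult arrays, and without any other array its adjusted p was 0.0543 to 0.151. CCT3 stayed past it without MII adult replicate 2 or 3, and otherwise had 0.0515 to 0.187. PFDN1 stayed past it without any 1 of the MII adult arrays, and otherwise had 0.0805 to 0.216. Centring the 9 arrays on their medians left HSP90AA1 at -1.57 (adjusted p = 0.31), CCT3 at -2.21 (0.262) and PFDN1 at -2.57 (0.237), none past the threshold. The call of HSP90AA1 in adult donors alone stayed without MII adult replicate 2 (adjusted p = 0.0466) or 3 (0.015) and with the block (0.0354), and otherwise had 0.054 to 0.175 over the omissions and 0.369 with centring. Over both ages the difference kept its sign, at -2.19 to -1.77 for HSP90AA1 over these omissions, -3.26 to -2.07 for CCT3 and -3.37 to -2.50 for PFDN1. Among pools of the same 9 arrays the 9 kept cumulus and granulosa markers were higher at MII in 7 and lower in 2 (median 1.04), the 8 oocyte markers higher in 2 and lower in 6 (median -0.56), and 8 theca and stroma markers higher in 4 (median -0.06). Markers were kept on their mean over the 12 arrays, and several had means below the filter (5.57) over the 9. Among these were PTX3 (5.17), TNFAIP6 (4.23) and FST (4.88) of cumulus and granulosa, and VIM (4.82), LUM (4.21) and DCN (4.71) of stroma. The signs of such markers over the 9 arrays thus rest on dim signal. The part of the marked cell types in the chaperone differences was not tested.

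The groups of MII and GV pools did not overlap in 8 chaperone genes that were lower at MII, against 3.53% of all probe sets, and in 1 that was higher, against 3.82%. Besides HSP90AA1, CCT3 and PFDN1, the lower ones were PFDN2, CCT4, HSPA4, DNAJC9 and HSPBAP1, and the higher one was BAG2. PFDN2, a further prefoldin subunit, read 11.83 and 11.50 in MII prepubertal and 10.56, 10.95 and 9.06 in MII adult pools, against 12.77 and 11.97 in GV prepubertal and 12.68 and 12.24 in GV adult pools, a difference of -1.49 (SE 0.55, adjusted p = 0.238). CCT4, a further chaperonin subunit, read 9.24 and 8.89 in MII prepubertal and 8.59, 8.85 and 4.34 in MII adult pools, against 10.51 and 10.44 in GV prepubertal and 10.20 and 9.95 in GV adult pools, a difference of -2.11 (SE 0.97, adjusted p = 0.343). MII adult replicate 3 gave the lowest CCT4 reading.

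HSPA4, an HSP110-type exchange factor of HSP70, read 13.32 and 12.73 in MII prepubertal and 12.30, 12.81 and 12.67 in MII adult pools, against 13.62 and 14.44 in GV prepubertal and 13.94 and 13.56 in GV adult pools. Its difference was -1.08 (SE 0.36, limma adjusted p = 0.186), and its groups did not overlap although they lay close. DNAJC9, a J-domain protein that also binds histones, read 8.39 and 6.07 in MII prepubertal and 8.95, 7.77 and 6.70 in MII adult pools, against 11.28 and 10.42 in GV prepubertal and 10.87 and 10.10 in GV adult pools. This was a difference of -3.15 (SE 0.85, adjusted p = 0.114), with -3.62 in prepubertal and -2.68 in adult pools. Over 12 arrays DNAJC9 had the smallest p among the chosen probe sets in this comparison, with a difference of -2.37 (SE 0.86, unadjusted p = 0.0121, adjusted p = 0.385).

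Among genes that were higher at MII, BAG2, a BAG protein that inhibits the ubiquitin ligase CHIP, read 11.91 and 10.01 in MII prepubertal and 10.74, 11.49 and 10.41 in MII adult pools, against 9.40 and 9.34 in GV prepubertal and 8.18 and 8.88 in GV adult pools. The difference was 1.97 (SE 0.69, limma adjusted p = 0.207). DNAJC14 read 11.47 and 12.42 in MII prepubertal and 11.37, 11.72 and 10.64 in MII adult pools, against 10.33 and 10.67 in GV prepubertal and 7.20 and 10.52 in GV adult pools, a difference of 1.91 (SE 0.72, adjusted p = 0.245), and MII adult replicate 3 lay just inside the GV range. DNAJC19, a subunit of the mitochondrial import motor, read 11.14 and 10.32 in MII prepubertal and 10.42, 8.80 and 7.89 in MII adult pools, against 8.93 and 10.11 in GV prepubertal and 4.42 and 7.43 in GV adult pools. Its difference was 2.16 (SE 0.92, adjusted p = 0.302), with the GV adult pools lowest. HSPB1 read 7.51 and 9.98 in MII prepubertal and 6.71, 7.15 and 7.56 in MII adult pools, against 5.86 and 7.38 in GV prepubertal and 5.48 and 3.78 in GV adult pools, a difference of 2.32 (SE 1.02, adjusted p = 0.316). None of these passed the test.

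**Figure D2:**
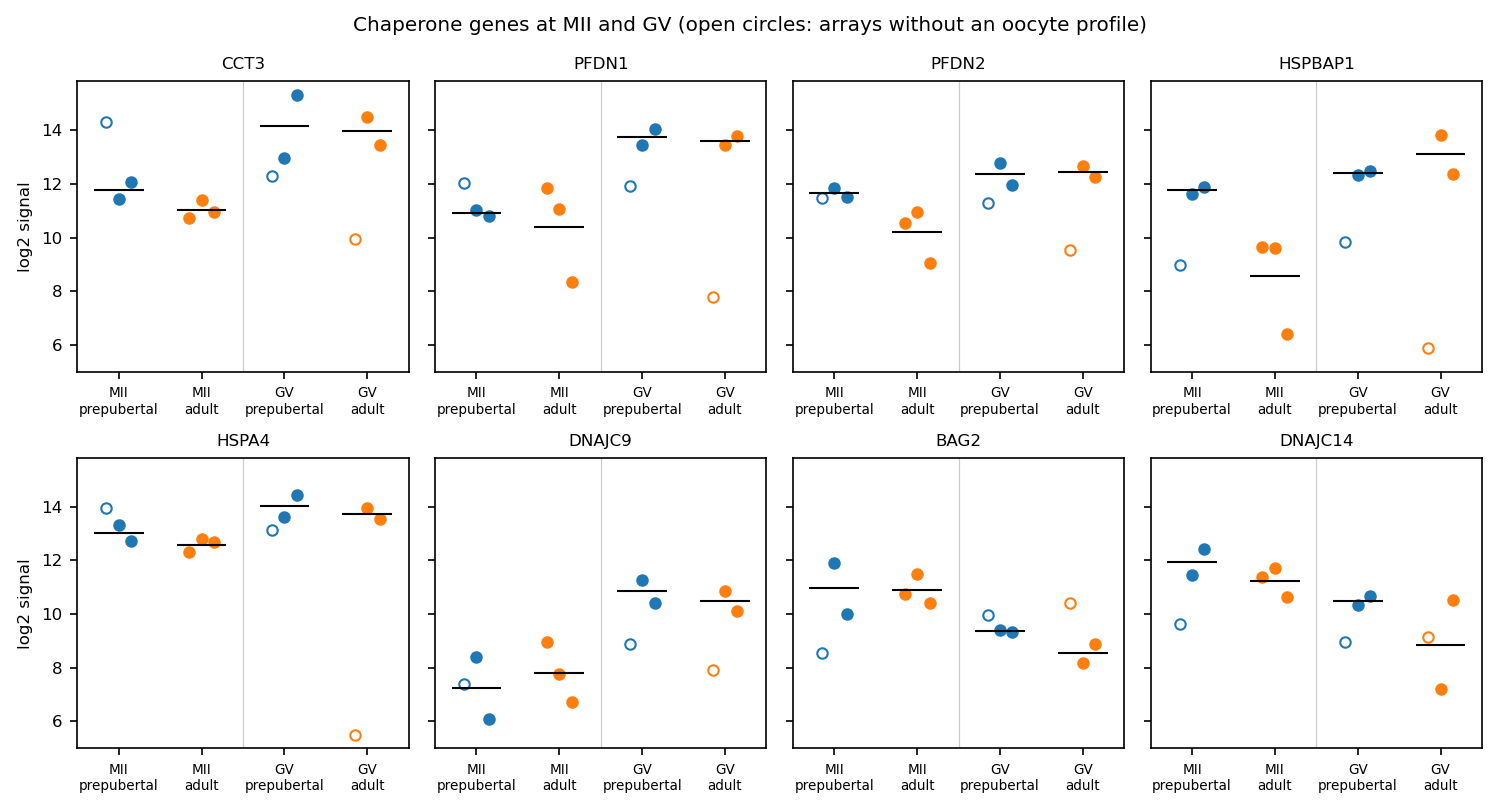
Log2 signal (y axis) of 8 chaperone genes in the 4 groups (x axis, MII left of GV); each point is a pool of 50 oocytes, open circles are the 3 arrays without an oocyte profile, and bars are the mean of the filled points. For CCT3, PFDN1, PFDN2, HSPBAP1, HSPA4 and DNAJC9 every filled MII point lies below every filled GV point, and for BAG2 above.

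By role, the counts differed. Over the 9 arrays 4 of 5 kept CCT genes were lower at MII (median -0.77), as were 3 of 5 prefoldin genes (median -1.49), 3 of 3 DNAJA genes (median -1.10) and 6 of 9 HSP70 and HSP110 genes (median -0.22). The exception among CCT genes was CCT5, at 0.74 (SE 0.61). Of the DNAJB genes 4 of 7 were higher (median 0.49), of the DNAJC genes 8 of 14 (median 0.06), and of the BAG and adaptor genes 4 of 8 (median 0.39). In all, 25 of 59 chaperone genes were higher at MII, against 48.2% of all probe sets, and their median was -0.42, against -0.07 over all. Over the 12 arrays the counts ran otherwise, with 33 of 59 higher (against 44.3%) and a median of 0.13, against -0.20 over all. Then 3 of 5 CCT genes were higher, and the prefoldin genes, 4 of 5 lower, kept a median of -1.29. An unadjusted p under 0.05 was reached by 13 chaperone genes over the 9 arrays, 9 of them lower, against 14.1% of all probe sets. HSPG2, the perlecan gene, had a difference of -2.77 (SE 1.09) over 12 arrays, and HSPB6 (HSP20), a small heat shock protein of muscle, -2.52 (SE 1.06).

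The other HSP90 genes did not pass the test. HSP90B1 (GRP94), the HSP90 of the endoplasmic reticulum, read 14.44 and 14.47 in MII prepubertal and 14.06, 14.24 and 15.82 in MII adult pools, against 14.09 and 13.70 in GV prepubertal and 13.72 and 13.86 in GV adult pools, a difference of 0.74 (SE 0.36, limma adjusted p = 0.371). HSP90AB1 read 12.90 and 12.84 in MII prepubertal and 12.88, 12.40 and 12.81 in MII adult pools, against 12.03 and 13.11 in GV prepubertal and 12.15 and 13.23 in GV adult pools, a difference of 0.15 (SE 0.42, adjusted p = 0.904). The difference between these genes and HSP90AA1 was not tested. STIP1, the adaptor between HSP70 and HSP90, differed by -0.70 (SE 0.46, adjusted p = 0.527).

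Probe sets of the same gene did not always differ the same way, which bears on HSP90AA1. The chosen probe set, whose name ends in S2_at, fell as described. It was chosen on its mean over the 12 arrays (13.57). Over the 9 arrays it read 13.81, and the gene's second probe set had the higher mean. The choice, and with it the sign of the HSP90AA1 difference, thus rests on the arrays without an oocyte profile. The other probe set of the gene, ending in S1_at, read 14.98 and 15.05 in MII prepubertal and 14.19, 14.74 and 14.80 in MII adult pools, against 12.26 and 14.00 in GV prepubertal and 13.18 and 14.24 in GV adult pools. It was higher at MII by 1.38 log2 units (SE 0.38, limma unadjusted p = 0.00234, adjusted p = 0.116), and only GV adult replicate 3 reached into the MII range. With quantile normalization of the 9 arrays that opposite difference was itself past the threshold (1.5, adjusted p = 0.0494). When the 2 probe sets were averaged, HSP90AA1 differed by -0.32 (adjusted p = 0.708). On the arrays without an oocyte profile the S1_at probe set read 14.16 on MII prepubertal replicate 1, 12.60 on GV prepubertal replicate 1 and 6.55 on GV adult replicate 1.

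HSPH1 (HSP110), an exchange factor of HSP70, showed the same split. Its chosen probe set read 11.78 and 10.68 in MII prepubertal and 10.73, 10.90 and 7.91 in MII adult pools, against 12.16 and 14.01 in GV prepubertal and 13.05 and 11.30 in GV adult pools, a difference of -2.09 (SE 0.73, limma unadjusted p = 0.0123, adjusted p = 0.207). A second one read 11.01 and 11.95 in MII prepubertal and 9.67, 10.70 and 9.74 in MII adult pools, against 7.98 and 5.98 in GV prepubertal and 8.29 and 7.55 in GV adult pools, a difference of 3.31 (SE 0.78, unadjusted p = 0.000767, adjusted p = 0.0695) with no overlap. Without MII adult replicate 3, whose value was the lowest for the chosen probe set, the differences were -1.61 (adjusted p = 0.138) and 3.38 (adjusted p = 0.0371). The 2 further probe sets were higher at MII by 3.51 (SE 1.48) and 1.68 (SE 1.21).

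HSPA5 (BiP), the HSP70 of the endoplasmic reticulum, had one probe set with a larger fall than any chosen one. It read 10.54 and 8.34 in MII prepubertal and 7.17, 6.92 and 5.36 in MII adult pools, against 11.83 and 13.21 in GV prepubertal and 12.14 and 13.50 in GV adult pools, with a mean of 7.66 at MII and 12.67 at GV. It fell by 4.71 log2 units (SE 0.78, limma adjusted p = 0.0180), and by 6.34 in adult pools alone (adjusted p = 0.0303). The chosen probe set of HSPA5 read 11.74 and 10.68 in MII prepubertal and 10.86, 11.30 and 12.75 in MII adult pools, against 10.28 and 12.09 in GV prepubertal and 10.64 and 10.66 in GV adult pools, with overlapping groups and a difference of 0.51 (SE 0.62, adjusted p = 0.754). The third differed by 0.81 (SE 1.34). On the arrays without an oocyte profile the probe set that fell read 15.43 on MII prepubertal replicate 1, 13.72 on GV prepubertal replicate 1 and 6.12 on GV adult replicate 1, and over 12 arrays its difference of -2.79 did not pass (adjusted p = 0.437). Leaving out 1 of the 9 arrays gave adjusted p-values of 0.00633 to 0.143, above the threshold without any of the GV prepubertal or MII prepubertal arrays or GV adult replicate 3. Median centring left -4.26 (adjusted p = 0.128), and the replicate block over the 9 arrays left -4.88 (adjusted p = 0.0248). The call in adult pools alone stayed without MII adult replicate 2 (adjusted p = 0.0406) or 3 (0.0177), and was lost in the other 7 omissions (0.0529 to 0.151), with centring (0.2) and with the block (0.0618).

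HSPA1A, the stress-inducible HSP70, ranged from a difference of -0.61 (SE 0.56) in its chosen probe set to 4.42 (SE 1.51, limma unadjusted p = 0.0105, adjusted p = 0.196) in another. A further one read 10.12 and 10.53 in MII prepubertal and 9.63, 10.14 and 10.33 in MII adult pools, against 8.59 and 5.14 in GV prepubertal and 7.56 and 8.35 in GV adult pools, a difference of 2.77 (SE 0.87, adjusted p = 0.167) with no overlap. Among 18 chaperone genes with more than 1 kept probe set, 9 (50.0%) had differences of both signs, against 794 of 1644 of all such genes (48.3%). Opposite signs each at an unadjusted p under 0.05 were found in HSP90AA1 and HSPH1, and in 18 of all 1644 genes. Which stretch of the transcript each probe set reads was not analysed here.

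**Figure D3:**
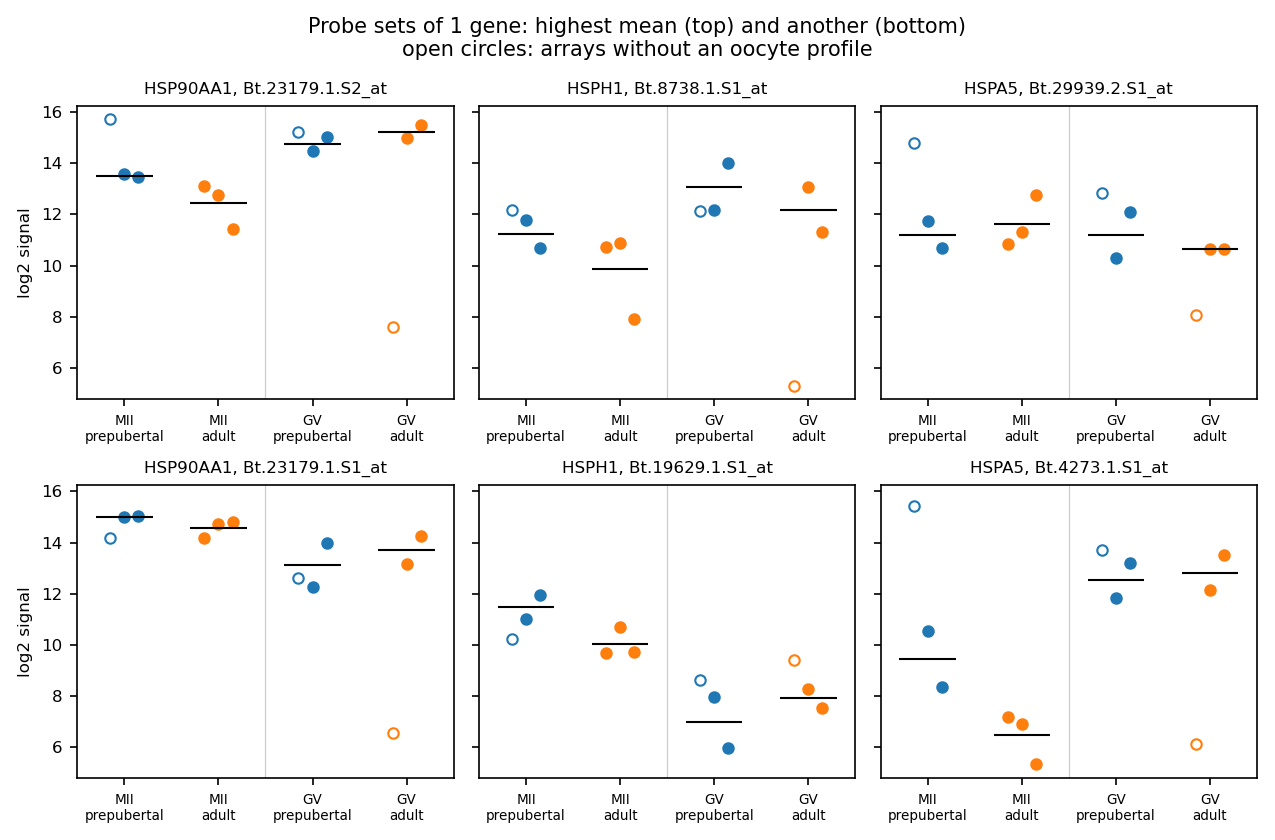
Log2 signal (y axis) of the probe set with the highest mean (top) and of another probe set of the same gene (bottom) in HSP90AA1, HSPH1 and HSPA5 for the 4 groups (x axis, MII left of GV); points are pools, open circles arrays without an oocyte profile, bars the mean of filled points. HSP90AA1 and HSPH1 are lower at MII in the top row and higher in the bottom row, and HSPA5 differs by 0.51 (top) and -4.71 (bottom).

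The maturation differences of the 2 ages rest on separate arrays and were set side by side. Over the 9 arrays, 41 of 59 chaperone genes (69.5%) had the same sign in prepubertal and adult donors, against 62.5% of all probe sets, with 26 lower and 15 higher at MII in both. Pearson's r across the 59 genes was 0.34, against 0.33 across all probe sets, as a description over genes that share arrays and are not independent. No chaperone gene passed in prepubertal donors (0 of 14409 probe sets, 0%, by limma), where 6 genes and 1007 probe sets (6.99%) had an unadjusted p under 0.05. In adult donors 14 genes and 1645 probe sets (11.4%) did. In prepubertal pools 22 of 59 genes were higher at MII, against 46.6% of all probe sets, and in adult pools 26 of 59, against 51.1%. Non-overlapping groups were found in 10 genes higher and 18 lower in prepubertal donors, against 19.4% and 20.8% of probe sets. In adult donors they were found in 10 higher and 15 lower, against 15% and 13.1%. Over 12 arrays, 27 genes were higher in prepubertal donors, against 41.2% (median -0.15, against -0.29), with 1 gene higher and 2 lower without overlap, against 3.66% and 6.05%. In adult donors 37 were higher over 12 arrays, against 48.2% (median 0.70, against -0.10), with 7 higher and 3 lower without overlap, against 8.11% and 7.19%. An unadjusted p under 0.05 was then reached by 1 gene in prepubertal donors, against 3.41% of probe sets, and by 3 in adults, against 7.93%, and 0 passed (0%). HSPG2, which is not a chaperone, was among these 3, and among the genes lower without overlap in adults over 9 and over 12 arrays. Leaving out GV adult replicate 1 alone gave a median of -0.44 in adult donors.

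No chaperone gene passed the test of the difference between the 2 maturation changes, over 9 or over 12 arrays (0 probe sets, 0%, by limma). At an unadjusted p under 0.05 there were 2 chaperone genes and 441 probe sets (3.06%) over 9 arrays, and 0 chaperone genes and 174 probe sets (1.21%) over 12. The change was more positive in prepubertal pools in 30 of 59 genes over 9 arrays, against 46.2% of probe sets, and in 17 over 12, against 43.7%. HSPBAP1, which binds HSPB1, read 11.64 and 11.88 in MII prepubertal and 9.65, 9.62 and 6.41 in MII adult pools, against 12.35 and 12.48 in GV prepubertal and 13.84 and 12.36 in GV adult pools. It was lower at MII by 4.54 log2 units in adult pools (SE 0.97, limma adjusted p = 0.0834) and by 0.66 in prepubertal pools, a difference between the ages of 3.88 (SE 1.44, unadjusted p = 0.0167, adjusted p = 0.999). Without MII adult replicate 3 HSPBAP1 fell by 3.47 in adult pools (adjusted p = 0.035) and by 2.06 over both ages (adjusted p = 0.0363). DNAJC6 (auxilin), which uncoats clathrin vesicles, read 8.14 and 9.42 in MII prepubertal and 10.10, 10.05 and 9.13 in MII adult pools, against 7.69 and 12.38 in GV prepubertal and 6.44 and 6.62 in GV adult pools. It differed by -1.26 in prepubertal and 3.23 in adult pools (difference -4.49, SE 1.94, adjusted p = 0.999), and GV prepubertal replicate 3 was its highest array.

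Further genes took opposite signs at the 2 ages without passing. DNAJC10 differed by -2.02 in prepubertal and 3.59 in adult pools, and read 6.84 and 9.48 in MII prepubertal and 7.29, 8.91 and 12.39 in MII adult pools, against 10.55 and 9.81 in GV prepubertal and 1.89 and 10.01 in GV adult pools. Another kept probe set of DNAJC10 had the opposite sign in adult pools, at -2.29 (SE 1.62). Over 12 arrays the difference between the ages was -4.47 (SE 2.55) in the chosen probe set and 1.51 (SE 2.21) in the other. DNAJC3, which inhibits eIF2 kinases and works in the ER, differed by -2.71 in prepubertal and 0.37 in adult pools, and read 8.75 and 8.00 in MII prepubertal and 8.37, 10.22 and 11.37 in MII adult pools, against 11.41 and 10.77 in GV prepubertal and 8.80 and 10.44 in GV adult pools. The HSP60 gene HSPD1 differed by -1.91 and 0.27. DNAJC11, a J-domain protein, differed by 2.95 in prepubertal and -0.44 in adult pools. Its readings were 8.38 and 8.57 in MII prepubertal and 8.87, 7.13 and 5.05 in MII adult pools. In GV pools they were 4.58 and 6.46 in prepubertal and 8.01 and 6.90 in adult donors. HSPA14, which works at the ribosome, did not change sign and differed by 0.04 in prepubertal and 2.74 in adult pools, with 13.51 in MII adult replicate 3, and read 10.14 and 10.13 in MII prepubertal pools.

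**Figure D4:**
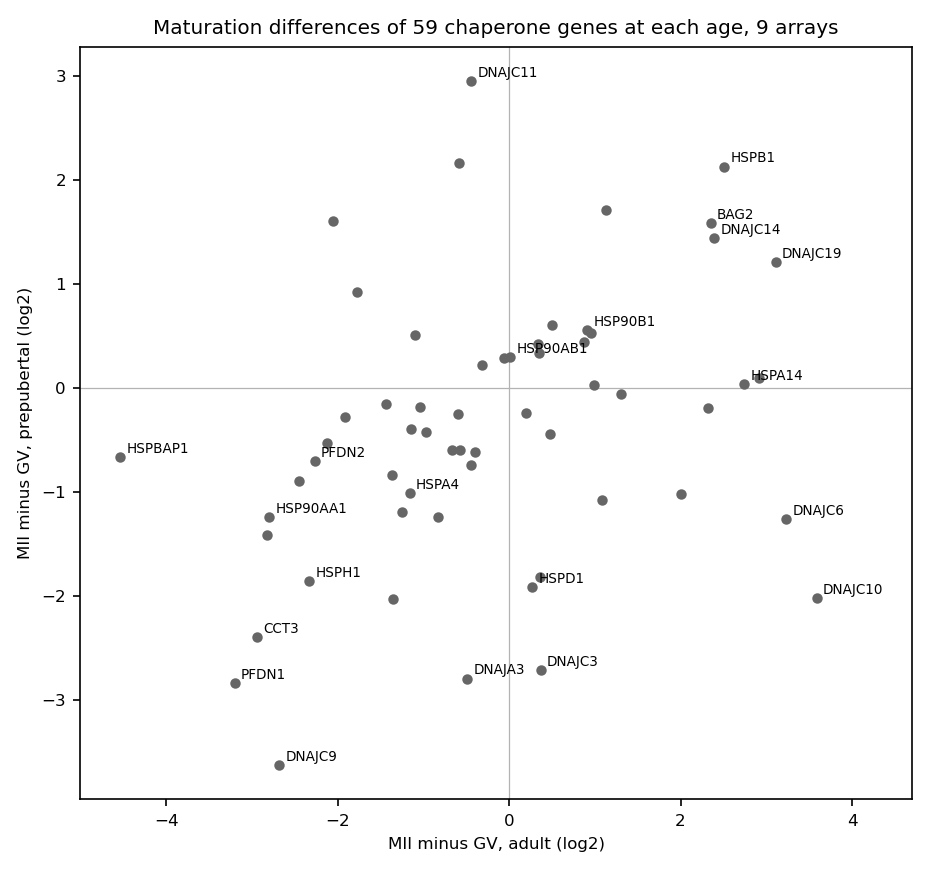
MII minus GV differences in log2 units of the 59 chaperone genes in prepubertal pools (y axis) and adult pools (x axis) over the 9 arrays with an oocyte profile; each point is a gene, and some are named. Of the 59, 26 lie at the lower left and 15 at the upper right, and HSPBAP1 lies farthest left at -4.54.

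Donor age gave no call. At the GV stage 0 of 59 chaperone genes passed over 12 or 9 arrays (0 of 14409 probe sets, 0%, by limma), with 362 probe sets (2.51%) and 2 chaperone genes at an unadjusted p under 0.05 over 12 arrays, and 668 (4.64%) and 3 over 9. Over 12 arrays 48 of 59 genes were higher in prepubertal than adult GV pools, against 57.6% of all probe sets, and the median difference was 1.0, against 0.25. Without the 3 arrays lacking an oocyte profile 35 of 59 were higher, against 57%, and the median was 0.14, against 0.23. Leaving out GV adult replicate 1 alone gave a median of 0.10. By role, all 3 HSP90, 8 of 9 HSP70 and HSP110, 5 of 5 CCT and 5 of 5 prefoldin genes were higher over 12 arrays, and 1, 5, 3 and 3 of them over 9.

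HSPD1, the mitochondrial HSP60, read 13.59, 12.17 and 12.35 in GV prepubertal pools, against 10.07, 9.32 and 10.72 in GV adult pools. The difference was 2.66 (SE 1.11, limma unadjusted p = 0.0271, adjusted p = 1) over 12 arrays and 2.24 (SE 0.89, adjusted p = 0.997) over 9. Only HSPD1 and CCT4 had non-overlapping groups over 12 arrays, both higher, against 3.8% of probe sets, and 0 were lower, against 1.88%. Over 9 arrays, with 2 pools a group, 12 were higher and 6 lower without overlap, against 16.2% and 11%. DNAJC19 read 10.28, 8.93 and 10.11 in GV prepubertal pools, against 9.55, 4.42 and 7.43 in GV adult pools, with differences of 2.64 (SE 1.26) over 12 and 3.60 (SE 1.35, adjusted p = 0.997) over 9 arrays. DNAJC6 differed by 3.5 (SE 1.43) over 9 arrays, with 12.38 in GV prepubertal replicate 3 and 6.44 to 8.23 in every other GV pool. DNAJC10 had the largest difference over 12 arrays, 4.48 (SE 1.80, unadjusted p = 0.0221), where GV adult replicate 2 read 1.89. The lowest were HSPA12B, with 7.53, 3.01 and 4.92 in prepubertal against 9.53, 6.25 and 8.17 in adult GV pools (-2.83 over 12 arrays), HSPBP1 (-2.34) and DNAJA4 (-1.64).

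At MII 0 of 59 genes passed over 12 or 9 arrays (0%, by limma), with 383 probe sets (2.66%) and 369 (2.56%), and 2 chaperone genes in each, at an unadjusted p under 0.05. Over 12 arrays 34 genes were higher in prepubertal pools, against 49.4% of all probe sets (median 0.20, against -0.02). Over 9 arrays 35 were higher, against 52.3% (median 0.20, against 0.07). HSPBAP1 read 11.64 and 11.88 in MII prepubertal pools, against 9.65, 9.62 and 6.41 in MII adult pools, a difference of 3.20 (SE 0.97, unadjusted p = 0.00499, adjusted p = 1) without overlap. MII prepubertal replicate 1, without an oocyte profile, read 8.96, and over 12 arrays the difference was 2.27. HSP90AA1 was higher by 1.09 (SE 0.50, unadjusted p = 0.0472) over 9 arrays, PFDN2 by 1.48 (SE 0.75) and STIP1 by 1.16 (SE 0.62). Non-overlapping groups over 12 arrays were found in 4 genes higher (CCT3, CCT4, HSP90AA1 and PFDN2), against 4.78%, and 0 lower, against 5.18%. Over 9 arrays they were 5 higher, against 9.24%, and 3 lower (DNAJC24, HSPA14 and HSPA8), against 9.89%. DNAJC13, an endosomal J-domain protein, was lower by 3.01 (SE 1.43) over 12 arrays, with 2.57 in the MII prepubertal pool without an oocyte profile, against 7.27 and 9.25 in the other 2. CCT4 differed by 2.86 (SE 1.29), where MII adult replicate 3 read 4.34. BAG1, an exchange factor of HSP70, differed by 2.50 (SE 1.31).

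**Figure D5:**
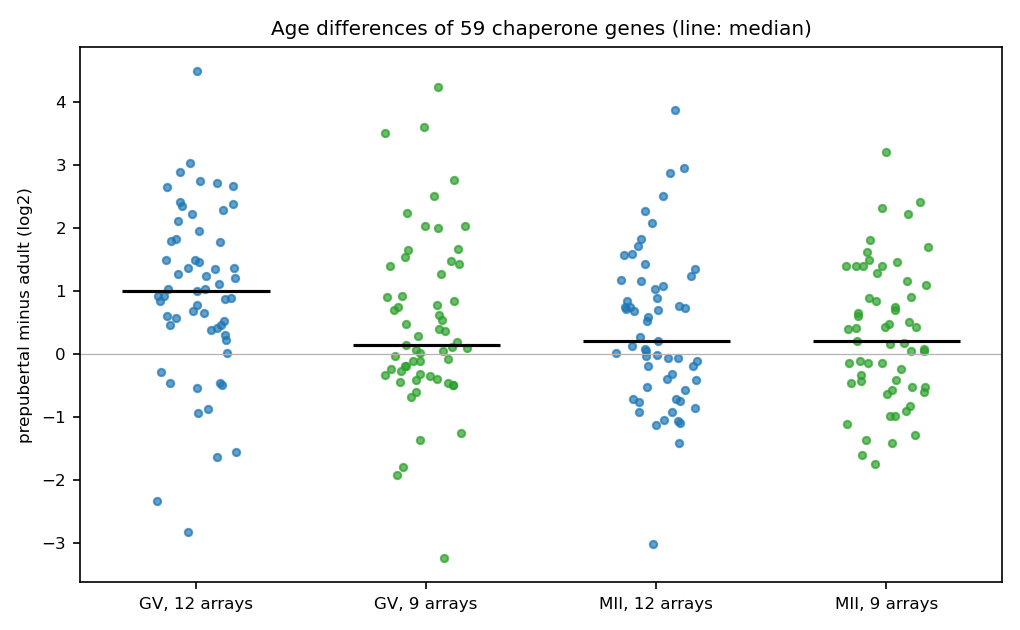
Prepubertal minus adult differences in log2 units (y axis) of the 59 chaperone genes at GV and at MII, over 12 and over 9 arrays (x axis); each point is a gene and lines are medians. The median at GV is 1.0 over 12 arrays and 0.14 over 9, and at MII 0.20 in both.

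Averaged over both stages, 0 of 59 genes passed over 12 or 9 arrays (0%, by limma), with 575 probe sets (3.99%) and 520 (3.61%) at an unadjusted p under 0.05. Over 12 arrays 47 genes were higher in prepubertal pools, against 55% of all probe sets, and 4 reached that level, all higher (HSPD1, DNAJC19, HSPB1 and HSPH1). Over 9 arrays 38 were higher, against 56.7%. Over 9 arrays DNAJC19 was higher in prepubertal pools by 2.64 (SE 0.92, unadjusted p = 0.0114, adjusted p = 1), with a mean of 10.13 (SD 0.91, n = 4), against 7.79 in adult pools (SD 2.20, n = 5). It was the only chaperone gene at that level there. HSPA8 differed by -0.51 (SE 0.37) over 9 arrays and by 0.59 over 12.

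Some genes changed place between the fits without passing. HSPB6 read 4.92 and 7.86 in MII prepubertal and 5.01, 5.72 and 4.22 in MII adult pools, against 7.94 and 5.90 in GV prepubertal and 7.76 and 6.45 in GV adult pools, and 4.36 on MII prepubertal replicate 1, 9.09 on GV prepubertal replicate 1 and 10.11 on GV adult replicate 1. HSPG2 read 5.00 and 7.76 in MII prepubertal and 5.19, 3.61 and 6.52 in MII adult pools, against 8.68 and 5.86 in GV prepubertal and 7.93 and 7.18 in GV adult pools, and 6.28 on MII prepubertal replicate 1, 9.65 on GV prepubertal replicate 1 and 11.72 on GV adult replicate 1. Both had low values in MII adult pools and high ones on some arrays without an oocyte profile. DNAJA4, a J-domain co-chaperone of HSP70, read 5.73 and 7.00 in MII prepubertal and 2.62, 6.02 and 6.25 in MII adult pools, against 5.22 and 8.08 in GV prepubertal and 5.92 and 7.85 in GV adult pools, a maturation difference of -1.10 (SE 1.20).

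STIP1 read 12.98 and 13.47 in MII prepubertal and 12.25, 13.06 and 10.90 in MII adult pools, against 13.93 and 13.37 in GV prepubertal and 13.02 and 13.05 in GV adult pools, and was higher in prepubertal pools by 0.88 (SE 0.46) over both stages. HSPBP1, an exchange factor of HSP70, read 7.61 and 8.65 in MII prepubertal and 6.64, 7.28 and 7.77 in MII adult pools, against 7.09 and 7.33 in GV prepubertal and 9.22 and 8.78 in GV adult pools, with an age difference of -1.80 (SE 1.27) at GV and 0.90 (SE 1.16) at MII over 9 arrays. BAG1 read 10.67 and 8.56 in MII prepubertal and 7.95, 9.38 and 4.59 in MII adult pools, against 9.83 and 8.37 in GV prepubertal and 7.15 and 9.65 in GV adult pools, and its low value in MII adult replicate 3 stood beside an age difference of 2.31 (SE 1.47) at MII. BAG6, which guards membrane proteins on the way to the ER, read 9.48 and 7.28 in MII prepubertal and 8.22, 7.92 and 7.08 in MII adult pools, against 4.51 and 8.84 in GV prepubertal and 3.96 and 9.27 in GV adult pools, a maturation difference of 1.42 (SE 1.26).

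DNAJC27, a small GTPase with a J domain, read 9.15 and 7.59 in MII prepubertal and 8.53, 9.38 and 9.69 in MII adult pools, against 7.99 and 10.41 in GV prepubertal and 12.05 and 9.10 in GV adult pools, and was lower in prepubertal pools by 1.10 (SE 0.88) over both stages. DNAJC24, a J protein of diphthamide synthesis, read 6.43 and 6.51 in MII prepubertal and 8.01, 6.59 and 7.48 in MII adult pools, against 6.67 and 6.77 in GV prepubertal and 7.58 and 8.34 in GV adult pools, an age difference of -1.07 (SE 0.92) over 9 arrays and 0.32 over 12. None of these age differences passed the test, and the sign in DNAJC24 turned with the 3 arrays.

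Genes that work with these chaperones but lie outside the rule were read from lists. Of 17 HSP90 co-chaperones 17 were kept, and 11 were higher and 6 lower at MII over the 9 arrays (median 0.21), with 5 at an unadjusted p under 0.05 and 0 past the adjusted threshold. Of all probe sets 48.2% were higher and 14.1% had such a p over the 9 arrays, and 44.3% and 10.7% over the 12. Over the 12 arrays 13 of the co-chaperones were higher and 4 lower (median 0.74), with 2 at that level. TTC4, an HSP90 co-chaperone, read 10.16 and 10.81 in MII prepubertal and 9.50, 10.56 and 9.95 in MII adult pools, against 7.51 and 7.05 in GV prepubertal and 6.57 and 4.46 in GV adult pools, a difference of 3.85 (SE 0.84, limma adjusted p = 0.0502) without overlap. SUGT1, an HSP90 adaptor of the kinetochore, read 10.85 and 12.28 in MII prepubertal and 11.28, 11.69 and 10.90 in MII adult pools, against 12.45 and 13.25 in GV prepubertal and 13.41 and 13.88 in GV adult pools, a difference of -1.82 (SE 0.48, adjusted p = 0.100), also without overlap. The immunophilin FKBP4 differed by -2.59 (SE 0.86), the phosphatase PPP5C by 3.22 (SE 1.25) and AHSA1, which stimulates the HSP90 ATPase, by 1.05 (SE 0.41).

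Among 12 kept chaperones of the endoplasmic reticulum and mitochondria (of 16 listed), 7 were higher and 5 lower at MII over the 9 arrays (median 0.61), with 1 at an unadjusted p under 0.05. That gene was HYOU1, an ER relative of HSP110, at 1.91 (SE 0.73, limma adjusted p = 0.253). Over the 12 arrays 10 were higher and 2 lower (median 0.87), with 1 at that level. These counts include CLPP, a mitochondrial protease and not a chaperone. Of 11 kept cofactors of chaperonin and tubulin folding (of 12), 4 were higher and 7 lower over the 9 arrays (median -0.35), with 2 at an unadjusted p under 0.05. These were the prefoldin-like URI1, at -2.98 (SE 0.97, adjusted p = 0.178), and PDRG1, at 2.34 (SE 0.89). Over the 12 arrays 6 were higher and 5 lower (median 0.25), also with 2 at that level. The gene of that list that was not kept was CRYAB, a small heat shock protein. Of 5 listed genes of heat shock transcription factors and their binding protein HSBP1, 2 were kept, HSF1 and HSF2, and both were lower at MII over the 9 (median -0.91) and the 12 arrays (median -1.04) without reaching an unadjusted p of 0.05. HSF1, the main driver of the heat shock response, read 8.96 and 8.30 in MII prepubertal and 7.77, 8.93 and 4.46 in MII adult pools, against 8.24 and 8.40 in GV prepubertal and 8.65 and 10.08 in GV adult pools, with overlapping groups.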

How the data were processed

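Values were the deposited log2 signals of 12 Affymetrix bovine arrays, 1 per pool of oocytes. Per the submitters' processing notes they came from MAS5 (version: not given in the sources used here), and each deposited array had a 2% trimmed mean of 500 on the linear scale. Of 24016 probe sets, leaving out 112 control probe sets, the 14409 with a mean over the 12 arrays above the 40th percentile (5.57) were tested. Probe sets were named from the platform annotation, 13292 having 1 symbol, 86 several and 10638 none. Members kept the symbol of that annotation, and the Entrez identifiers of all 66 were found in a gene reference. Symbols updated through these identifiers were used to look up the marker genes and the other lists.

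All groups were fitted together in limma 3.58.1 (R 4.3.3) with an intensity trend, and p-values were adjusted by the Benjamini-Hochberg method over the 14409 probe sets, with 0.05 as the threshold. The design used 12 arrays, and the 9 with an oocyte profile (oocyte marker median more than 2 log2 units above the array's) were an alternative. Differences over both ages or both stages weigh the groups equally, so they can differ from the difference of the pool means printed beside them. Shares of all features are over probe sets, whereas each member is 1 probe set. Nothing in the labels says that pools came from separate animals, so p-values measure only the spread between pools. The number of arrays limits the precision, and these values hold no depth.

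Named genes were HSP90AA1, every member past the threshold, the 3 members of each direction with the smallest unadjusted p in each comparison over 12 and over 9 arrays, and the 6 with the highest mean. Other members stand with their role or spread, and the other probe sets of HSP90AA1, HSPH1, HSPA5, HSPA1A and DNAJC10 were chosen after their values were seen. Members and lists were chosen with earlier results of these data known. Deviations of same-numbered pools correlated at 0.609, 0.149 and 0.306 between MII and GV prepubertal pools, a pairing taken from the data alone, and at -0.105 to 0.383 in the other sets of groups. The fits had no block, and the replicate number was added as one over the 12 and, after the data were seen, over the 9 arrays. Over the 9 arrays MII adult replicate 1 had no partner, so the block left it out of the differences. The fit was tested on simulated data for maturation in adults. Of 100 probe sets shifted by 3 log2 units, 1 passed over 12 arrays and 4 over 9. Of 100 shifted by 6 log2 units, 30 and 43 passed, so most shifts of these sizes were missed in the simulation. The shifted probe sets were drawn at random from all kept ones. Their recovery therefore gives no rate for bright probe sets or for the comparison over both ages. Of the probe sets that were not shifted, 3 passed over 12 arrays and 0 over 9. Sequences were not analysed here.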

Additional observations from a re-analysis of the deposited data

How the results depend on the processing

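The median difference of the 59 members between prepubertal and adult GV pools was 0.14 over 9 arrays, over 8 (also without MII adult replicate 3), with the filter set on the 9 or with the probe sets of a gene averaged, 0.32 with quantile normalization of the 9, -0.19 with median centring of the 9, and 0.25 with array weights. For maturation in adults it was -0.44 over 9 arrays, -0.32 over 8, 1.48 with median centring of 12, and over 9 arrays -0.26 (quantile), -0.34 (centring), -0.40 (filter) and -0.38 (averaged probe sets). In prepubertal pools it was 0.75 with centring and -1.01 with the letter b in the sample names as a covariate, and over both ages 0.97 and -0.69. The difference between the ages was 0.06 over 9 arrays and with the filter on them, 0.03 over 8, -0.07 (quantile), 0.76 (centring), 0.19 (averaged probe sets) and -0.02 with array weights. For maturation over both ages the probe sets called were 104 over 9 arrays, 315 over 8, 156 (quantile), 116 (filter), 51 (averaged), 855 with array weights and 15 with the replicate block, against 0, and the members called were 3, 4, 3, 3, 1 and 3, and 0 with the block. In adults they were 17, 69, 16, 15, 7, 96 and 5 probe sets, with 1 member over 9 arrays and 2 over 8. In prepubertal pools 5 probe sets were called over 8 arrays and 5 with weights, and for age 1 at GV (weights) and 1 at MII (weights and, separately, the replicate block). Over the 12 arrays the replicate block changed no call of a member. Over the 9 arrays, added after the data were seen, it gave 95 probe sets and 3 members over both ages, 14 and 1 in adults, and medians of 0.14 for age at GV, -0.31 in adults and -0.18 for the difference between the ages.

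With an unadjusted p under 0.05 and a change of at least 2-fold, 362, 383, 1143, 492, 1537, 575 and 174 probe sets passed for age at GV, age at MII, maturation in adults, in prepubertal pools, over both ages, age over both stages and the difference between the ages, and 2, 2, 3, 1, 4, 4 and 0 members. Without 1 of the 12 arrays in turn the median ran from 0.10 to 1.62 for age at GV, 0.10 to 0.45 at MII, -0.44 to 1.23 for maturation in adults, -0.60 to 0.28 in prepubertal pools, -0.45 to 0.55 over both ages, 0.21 to 0.82 for age over both stages and -1.46 to 0.15 for the difference between the ages. GV adult replicate 1 gave 0.10, -0.44 and 0.15 when left out. Members called stayed at 0, and probe sets at 0 to 0, except 0 to 9 for maturation over both ages, with 9 without MII prepubertal replicate 1.

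Signs turned for HSP90AA1 at maturation. Over 12 arrays it was 0.53 (quantile), 0.52 (centring) and 1.49 (averaged probe sets) in adults, and 0.88, 1.13 and 0.24 without GV adult replicate 2 or 3 or MII adult replicate 3, within a range of -2.80 (without GV adult replicate 1) to 1.13 over omissions. In prepubertal pools it was 0.25 (centring), 0.56 (averaged) and 0.32 (averaged over 9 arrays), over both ages 0.39 (centring), 1.03 (averaged) and 0.12 and 0.24 without GV adult replicate 2 or 3 (range -1.73, without GV adult replicate 1, to 0.24), and its difference between the ages was -0.39 over 12 arrays. BAG6 was -1.01 in prepubertal pools with the letter b, and DNAJC13 0.36 and HSPB6 0.27 there with centring of the 9. DNAJC19 was -0.29 over both ages with averaged probe sets. For age over both stages DNAJC24 was 0.32 over 12 arrays and 0.63 with averaged probe sets, and HSPA8 0.59 over 12 arrays. The causes were not tested. Of the values of single members, 1916 kept sign and side of the threshold, 39 lost and 12 gained a call, and 22 reversed.

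Probe sets with a mean signal below 5.57 over the 12 arrays were not tested. With 2 to 3 pools a group, a member without a call is not shown to be unchanged.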
